A study of Mus musculus with 288 samples.

Results

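The solute carrier families Slc5, Slc13, Slc22 and Slc34 were followed across 6 mouse tissues, 2 exposures and 8 times of day. Members were taken as every gene whose symbol is Slc5a, Slc13a, Slc22a or Slc34a followed by a number, which gave 44 of the 35904 genes in the tables, with 11 in Slc5, 5 in Slc13, 25 in Slc22 and 3 in Slc34. Male C57BL/6J mice, 8 weeks old, breathed room air throughout (normoxia) or underwent intermittent hypoxia (IH), in which oxygen cycled between 21% and 8% during the inactive phase for 7 days. Both groups were then kept in normoxic constant darkness for 2 days, and on day 2 of darkness 6 tissues (kidney, liver, lung, heart, muscle and cerebellum) were collected every 3 hours. Each tissue and exposure was covered by 24 libraries, 3 at each of 8 time points, and expression is given as TPM, a measure of transcript abundance that corrects for transcript length and library size. The mice carried no transgene, and the comparison after IH describes animals that had already returned to room air. Libraries are of whole tissue, so fewer cells of a type and less RNA per cell cannot be told apart.

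These carriers move small solutes across the plasma membrane. Slc5 proteins use the sodium gradient to take up sugars, iodide, vitamins, monocarboxylates, choline or inositol, Slc13 proteins take up sulfate and di- and tricarboxylates, Slc22 proteins carry organic cations, organic anions, carnitine or urate, and Slc34 proteins take up phosphate. Many of them line the renal proximal tubule, where filtered solutes are reclaimed and drugs and metabolites are secreted, and some sit on the sinusoidal face of hepatocytes or on alveolar type II cells.

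Values were checked library by library before groups were compared. Defining markers of each labelled tissue were present in it, and the 288 libraries summed to between 989211 and 999188 TPM. Several libraries stood apart from the rest of their tissue. The liver library after IH labelled replicate 2 at 13:30 held liver markers at 2.01% of their normoxia level and heart markers at 32.9% of the heart level, with a median correlation of 0.693 with the other liver libraries. The cerebellum library after IH labelled replicate 3 at 1:30 held cerebellum markers at 8.00% and heart markers at 37.0%. In lung the library of lowest correlation, after IH and labelled replicate 2 at 1:30, held lung markers at 20.1%. It was not alone, since lung markers after IH ran from 26.9% to 118% in replicate 1 and from 20.1% to 98.7% in replicate 2. They ran from 84.3% to 109% in replicate 3 after IH, and their lowest value in normoxia was 78.2%. The number of genes detected differed between exposures in lung (22694 ± 737 in normoxia and 25455 ± 1529 after IH, SD, n = 24 each) and in heart (25124 ± 1719 and 21447 ± 688). Effects are on the log2(TPM + 0.5) scale after median-of-ratios scaling unless stated, which understates changes of low genes. With TPM as deposited the median difference over all genes tested was 0.21 in lung, -0.12 in liver and 0.15 in heart, against -0.08, -0.01 and 0.04 after scaling.

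The kidney held most of the expression of these families. In normoxia their summed level was 5420 TPM ± 1018 (SD, n = 24) in kidney, 666 ± 111 in lung, 529 ± 50.7 in liver, 260 ± 64.7 in cerebellum, 40.1 ± 8.87 in muscle and 35.8 ± 6.49 in heart. A mean of at least 1 TPM was reached by 35 members in kidney, 17 in cerebellum, 16 in lung, 14 in liver, 9 in muscle and 8 in heart. Of the 40 members that reached 1 TPM in some tissue, 26 were highest in kidney, defined as at least 2-fold above each other tissue with an adjusted p of at most 0.05 in each limma test. The same rule placed 4.44% of all 18080 genes tested in kidney. It placed 5 members in cerebellum (14.4% of all genes), 1 in lung (14.6%), 1 in muscle (3.21%), and 0 in liver (3.63%) or heart (0.664%), while 7 met it in no tissue. The kidney count ran over 8 of 11 Slc5 genes, 3 of 5 Slc13 genes, 13 of 21 tested Slc22 genes and 2 of 3 Slc34 genes.

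**Figure D1:**
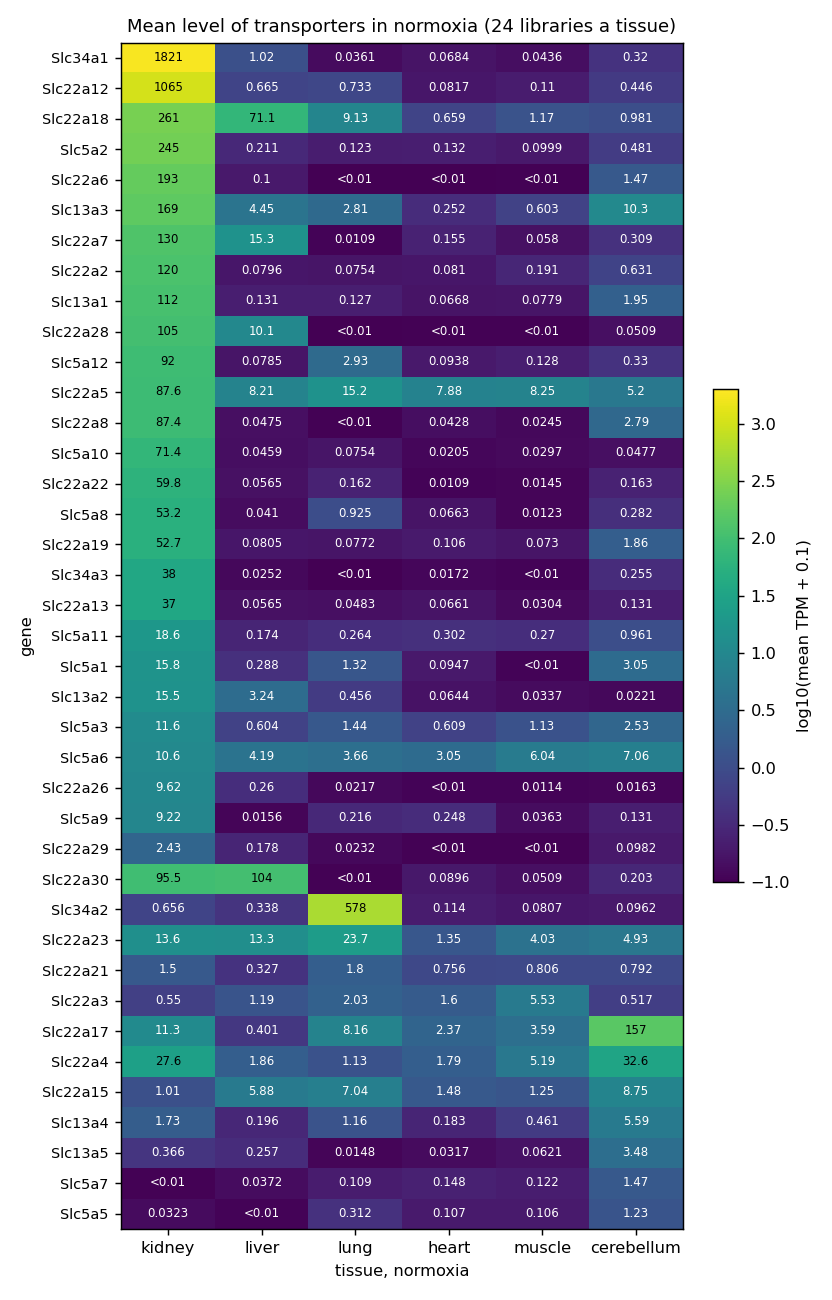
Mean TPM in normoxia (24 libraries a tissue) of members that reached 1 TPM, genes in rows and tissues in columns, with colour on a log10 scale and the mean printed in each cell. Most rows are brightest in kidney, Slc22a30 is bright in both kidney and liver, Slc34a2 in lung and Slc22a17 in cerebellum.

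Phosphate and urate reclaiming carriers led the kidney list. Slc34a1, the main sodium-phosphate cotransporter of the proximal tubule brush border, stood at 1821 TPM ± 462 (SD, n = 24) in kidney and ranked 44 of 35904 genes there, and it made up 33.6% of the families' summed kidney level. Its next highest mean was liver at 1.02 TPM ± 1.72, where 19 of the 24 libraries averaged 0.155 TPM and the other 5, which held kidney markers as described below for liver, averaged 4.29 TPM. Slc22a12, the urate carrier of the same membrane, was at 1065 TPM ± 153, with 0.733 ± 0.596 in lung as its next tissue. Slc34a3, a second renal phosphate carrier, reached 38.0 ± 8.98 TPM. Slc34a2, the phosphate carrier of alveolar type II cells, had the opposite placing, at 578 TPM ± 104 in lung against 0.656 ± 0.262 in kidney, and supplied 86.7% of the families' summed level in lung.

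The sodium-coupled sugar carriers of Slc5 were kidney genes throughout. Slc5a2, which reclaims most filtered glucose, was at 245 TPM ± 64.1 in kidney and 0.481 ± 0.281 in cerebellum, its next tissue. Slc5a1, the high-affinity glucose carrier, was lower in kidney at 15.8 ± 3.64 TPM and was measured at 3.05 ± 0.929 in cerebellum and 1.32 ± 0.196 in lung. Slc5a10, a fructose and mannose carrier, stood at 71.4 ± 18.2 TPM and Slc5a9, a related sugar carrier, at 9.22 ± 2.64 TPM. The inositol carriers Slc5a11 and Slc5a3 reached 18.6 ± 5.27 and 11.6 ± 2.17 TPM in kidney. The monocarboxylate carriers Slc5a12 and Slc5a8, which take up lactate among other substrates, reached 92.0 ± 18.8 and 53.2 ± 13.0 TPM there, and their next tissue was lung at 2.93 ± 1.00 and 0.925 ± 0.264 TPM. Slc5a6, which carries biotin and pantothenate, had the flattest profile of the Slc5 genes named so far, from 10.6 ± 3.37 TPM in kidney and 7.06 ± 2.90 in cerebellum to 3.05 ± 0.957 in heart. Slc5a7, the choline carrier of cholinergic neurons, and Slc5a5, the iodide carrier, were highest in cerebellum at 1.47 ± 1.77 and 1.23 ± 0.527 TPM. The Slc5a7 values in cerebellum ran from 0.094 to 6.22 TPM around a median of 0.49, so that its mean rested on a few libraries.

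Of the Slc13 genes, 3 were highest in kidney and the others in cerebellum, with sulfate and carboxylate carriers in both sets. Slc13a3 and Slc13a2, carriers of succinate and other dicarboxylates, were at 169 ± 45.6 and 15.5 ± 4.80 TPM in kidney, and the sulfate carrier Slc13a1 was at 112 ± 24.2 TPM. Slc13a4, a second sulfate carrier, and Slc13a5, the citrate carrier, were highest in cerebellum at 5.59 ± 1.85 and 3.48 ± 1.30 TPM, against 1.73 ± 0.470 and 0.366 ± 0.106 in kidney. Slc13a3 was also measured in cerebellum at 10.3 ± 2.97 TPM, above liver at 4.45 ± 0.810.

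The Slc22 organic ion carriers covered every tissue. Among organic anion carriers, Slc22a6, Slc22a7 and Slc22a8 were at 193 ± 47.1, 130 ± 32.1 and 87.4 ± 23.4 TPM in kidney. Slc22a7 was also present in liver at 15.3 ± 6.71 TPM, while Slc22a6 and Slc22a8 were near 0 in liver, at 0.10 and 0.0475 TPM, and had cerebellum as their next tissue at 1.47 ± 0.634 and 2.79 ± 1.27 TPM. The summed level of 5 choroid plexus markers ran from 1.86% to 205% of its mean over the normoxia cerebellum libraries, and its part in those levels was not tested. Slc22a2, the renal organic cation carrier, was at 120 ± 27.4 TPM. Slc22a3, a carrier of organic cations in extraneuronal tissue, was highest in muscle at 5.53 ± 2.03 TPM. Slc22a18, an imprinted member of uncertain substrate, was at 261 ± 58.0 TPM in kidney and 71.1 ± 8.95 in liver.

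The carnitine carrier Slc22a5 was at 87.6 ± 17.9 TPM in kidney and at 15.2 ± 1.60 in lung, and its lowest tissue mean, in cerebellum, was 5.20 TPM. Its relatives Slc22a4, which carries ergothioneine, and Slc22a21 were highest in cerebellum at 32.6 ± 8.60 TPM (kidney 27.6 ± 5.6) and in lung at 1.80 ± 0.488 TPM (kidney 1.5 ± 0.774), with differences too small for the 2-fold rule. The organic anion carriers Slc22a28, Slc22a22, Slc22a19, Slc22a13, Slc22a26 and Slc22a29 were highest in kidney at 105 ± 15.5, 59.8 ± 9.42, 52.7 ± 12.2, 37.0 ± 10.3, 9.62 ± 3.27 and 2.43 ± 0.449 TPM. Slc22a30 was shared between liver at 104 ± 14.98 and kidney at 95.5 ± 14.1 TPM, which did not differ beyond their spread (adjusted p = 0.0968). Slc22a17, a receptor for siderophore-binding lipocalin, was at 157 ± 50.1 TPM in cerebellum and 11.3 ± 2.57 in kidney. Slc22a23 was highest in lung at 23.7 ± 5.02 TPM, ahead of kidney at 13.6 ± 4.28 and liver at 13.3 ± 6.04, and Slc22a15 was at 8.75 ± 2.86 TPM in cerebellum and 7.04 ± 0.615 in lung. Slc22a14, Slc22a16, Slc22a20 and Slc22a27 stayed under 1 TPM on average in every tissue, with highest tissue means of 0.961, 0.0101, 0.0882 and 0.357 TPM. Kallisto divides reads between near-identical transcripts by estimate, so single values of the neighbouring copies Slc22a26 to Slc22a30 are less certain than those of genes that stand alone.

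Members that were neighbours in the genome were not always highest in the same tissue. Grouping members with gaps of at most 500 kb (GRCm38 coordinates, the build of mm10) gave 4 clusters, all of Slc22 genes, of which 3 are described. The cluster on chromosome 19 from 7673061 to 8628299 held Slc22a19, Slc22a26, Slc22a27, Slc22a28, Slc22a29, Slc22a30, Slc22a8 and Slc22a6, of which 6 of 8 were highest in kidney, the exceptions being the shared Slc22a30 and the little expressed Slc22a27. On chromosome 11 from 53864542 to 54028090, Slc22a5 was highest in kidney and its neighbours Slc22a21 and Slc22a4 met the rule nowhere. On chromosome 9 from 119169455 to 119365553, Slc22a13 was a kidney gene and Slc22a14 stayed under 1 TPM.

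The bases just upstream of the transcription start are shown for 4 kidney genes because they carry a motif of HNF1, a transcription factor family of the proximal tubule and liver. RefSeq promoters (GRCm38.p6) were at hand for 37 of the 44 members, and the 250 bases before each start were searched on both strands for GTTAAT. The motif was found in 5 of 37 member promoters, all among the 21 of members highest in kidney, namely Slc34a1, Slc22a6, Slc22a8, Slc5a10 and Slc22a29. It was found in 6.52% of all 27025 promoters searched and in 11.3% of the 585 promoters of genes highest in kidney. The sequences run 5′ to 3′ toward the start, with the motif on either strand in capitals. Slc34a1 (chr13:55399398-55399647, plus strand) holds it with first bases 89 and 61 before the start, Slc22a6 (chr19:8617746-8617995, plus strand) at 56, Slc22a8 (chr19:8592932-8593181, plus strand) at 81 and Slc5a10 (chr11:61720800-61721049, minus strand) at 75.
Slc34a1: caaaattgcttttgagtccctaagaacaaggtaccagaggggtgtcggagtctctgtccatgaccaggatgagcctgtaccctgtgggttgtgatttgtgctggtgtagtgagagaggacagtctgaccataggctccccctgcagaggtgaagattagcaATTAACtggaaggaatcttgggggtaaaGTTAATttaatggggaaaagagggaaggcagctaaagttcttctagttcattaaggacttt
Slc22a6: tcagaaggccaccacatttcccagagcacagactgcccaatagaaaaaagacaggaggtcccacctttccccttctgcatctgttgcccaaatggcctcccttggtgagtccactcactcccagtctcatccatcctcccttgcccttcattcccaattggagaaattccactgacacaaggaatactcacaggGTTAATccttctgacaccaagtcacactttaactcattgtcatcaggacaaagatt
Slc22a8: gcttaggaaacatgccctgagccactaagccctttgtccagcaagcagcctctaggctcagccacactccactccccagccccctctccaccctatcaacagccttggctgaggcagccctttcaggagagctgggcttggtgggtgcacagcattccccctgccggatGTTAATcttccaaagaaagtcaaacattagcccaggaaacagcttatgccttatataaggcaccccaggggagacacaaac
Slc5a10: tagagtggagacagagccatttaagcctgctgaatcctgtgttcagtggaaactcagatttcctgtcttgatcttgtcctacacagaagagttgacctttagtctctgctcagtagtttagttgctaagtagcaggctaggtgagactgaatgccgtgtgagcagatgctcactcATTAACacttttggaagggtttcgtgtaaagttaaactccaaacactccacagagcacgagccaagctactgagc
Slc22a6 and Slc22a8 lie side by side in the chromosome 19 cluster, and both carry the motif in the same orientation. A match in letters is a description of the sequence and not of binding. CACGTG, the E-box read by the clock activators, was found in 4 of 37 member promoters (Slc13a3, Slc22a4, Slc22a16 and Slc5a1) and in 6.05% of all promoters, TTATGTAA, the D-box, in 1 (Slc22a20) against 0.862%, AGGTCA, the core read by nuclear receptors such as REV-ERB and ROR, in 5 (Slc22a14, Slc22a27, Slc34a3, Slc5a10 and Slc5a11) against 13.8%, and CAAAGTCCA, an HNF4 motif, in 0 against 0.381%. The full HNF1 palindrome, which contains the shorter motif, was in 0 against 0.0074%.

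The first question put to these data was what IH left behind in the level of each carrier. Over the 6 tissues 101 pairs of a member and a tissue were tested, and 5 were called at an adjusted p of at most 0.05 and a change of 1.5-fold (limma, Benjamini-Hochberg over all genes of the tissue). These were Slc34a1, Slc22a12 and Slc22a18 in liver and Slc22a21 and Slc22a18 in lung. The share of all genes called was 0.783% in kidney, 3.65% in liver, 13.48% in lung, 2.95% in heart, 0.374% in muscle and 2.64% in cerebellum, against 0 of 35 members, 3 of 15, 2 of 17, 0 of 8, 0 of 9 and 0 of 17. The remaining members of the 44 were under 1 TPM on average in the tissue and were not tested there. By the adjusted p alone 27 of the 101 pairs passed, which were 6 of 35 members in kidney (19.8% of all genes), 6 of 15 in liver (24.2%), 11 of 17 in lung (70.4%), 4 of 8 in heart (45.2%), 0 of 9 in muscle (10.4%) and 0 of 17 in cerebellum (15%). Shares of members lay below those of all genes in kidney, lung, muscle and cerebellum and above them in liver and heart, and these differences were not tested.

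In kidney, where these carriers were most abundant, no member moved by 1.5-fold and 6 of 35 passed the adjusted p, of which 5 are described. Slc5a3, the inositol carrier of cells under osmotic load, had a median of 11.7 TPM (6.79 to 15.8) in normoxia and 14.2 (7.32 to 24.9) after IH, with overlap between the groups, and was higher at 8 of 8 time points (log2 difference 0.36, SE 0.066, adjusted p = 0.000106). Within replicate numbers 1, 2 and 3 the difference was 0.30, 0.34 and 0.44 for Slc5a3.

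Carriers of lactate and organic anions made up the kidney genes that fell. Slc5a12 had a median of 92.8 TPM (56.4 to 128) in normoxia and 65.3 (20.5 to 115) after IH, lower at 8 of 8 time points, with a log2 difference of -0.46 (SE 0.11, adjusted p = 0.00151). Its relative Slc5a8 did not pass (0.19, SE 0.082, adjusted p = 0.103). The anion carriers Slc22a30, Slc22a22 and Slc22a28 differed by -0.32 (SE 0.065, adjusted p = 0.000428), -0.30 (SE 0.070, adjusted p = 0.00171) and -0.19 (SE 0.068, adjusted p = 0.0429). Slc22a30 and Slc22a22 were lower at every one of the 8 time points. Without replicate 3 the adjusted p was 0.0595 for Slc22a30, 0.0586 for Slc22a22 and 0.588 for Slc22a28, and without replicate 2 it was 0.0782 for Slc5a12 and 0.0813 for Slc22a28. When genes detected per library entered the fit, Slc22a28 had an adjusted p of 0.107, and the other 4 kept theirs at or below 0.02.

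The carriers that dominate the kidney list showed smaller differences that did not pass. Slc34a1 was at 1821 ± 462 TPM in normoxia and 1910 ± 521 after IH (log2 difference 0.10, SE 0.091), Slc22a12 at 1065 ± 153 and 1050 ± 174 (0.02, SE 0.054), Slc5a2 at 245 ± 64.1 and 251 ± 76.5 (0.07, SE 0.085) and Slc22a6 at 193 ± 47.1 and 202 ± 60.4 (0.08, SE 0.098). Within replicate 2 the difference of Slc34a1, Slc5a2 and Slc22a6 was -0.25, -0.15 and -0.31, and within replicate 3 it was 0.40, 0.45 and 0.28. When genes detected per library entered the fit, 18 of 35 members passed in kidney, 15 of them higher, against 24.1% of all genes. Slc34a1 (0.24, adjusted p = 0.029) and Slc22a6 (0.25, adjusted p = 0.0253) were then among those that passed, as were Slc5a10 (0.49, adjusted p = 0.000131), Slc22a18 (0.41, adjusted p = 0.00104) and Slc13a3 (0.38, adjusted p = 0.00172), while Slc22a12 (0.07, adjusted p = 0.366) and Slc5a2 (0.12, adjusted p = 0.371) were not. The median over the 35 members was 0.05, against -0.01 over all 12902 genes tested.

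**Figure D2:**
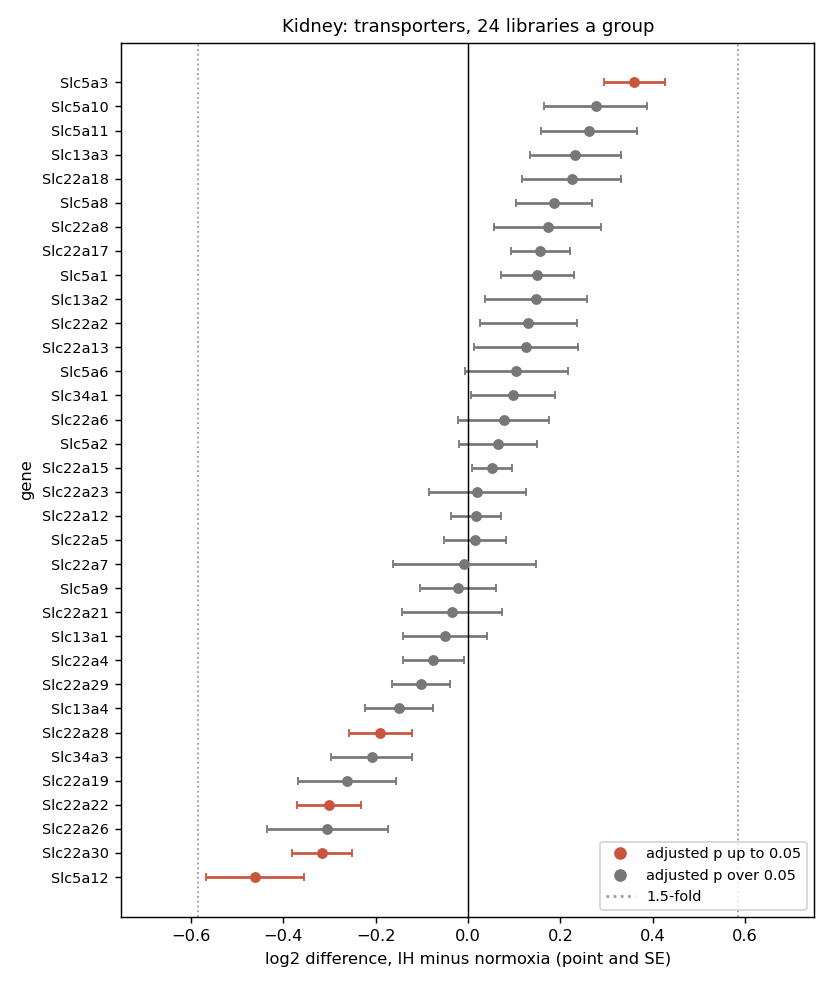
Log2 difference of members in kidney, IH minus normoxia (x axis, point and SE, 24 libraries a group), genes ordered by the difference, with dotted lines at 1.5-fold. The 5 coloured genes passed the adjusted p, from Slc5a12 at -0.46 to Slc5a3 at 0.36, and none reached the dotted lines.

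In liver the members called higher after IH were genes of the kidney. Slc34a1 had a median of 0.144 TPM in normoxia (0.0277 to 4.65) and 3.15 TPM after IH (2.38 to 16.8), and was higher at 8 of 8 time points, with a log2 difference of 2.13 (SE 0.26, adjusted p = 1.38e-07). Slc22a12 had a median of 0.162 TPM (0 to 3.3) and 2.05 TPM (0.935 to 10.1), a difference of 1.66 (SE 0.22, adjusted p = 5.27e-07). It reached the mean of 1 TPM needed to enter the test through its level after IH, since its normoxia mean was 0.665 TPM. The same holds for Cltrn, the kidney protein collectrin and a member of the partner list below, which averaged 0.764 TPM in normoxia and 2.99 after IH. Normoxia values of both carriers fell into separate sets. In 19 normoxia libraries Slc34a1 stayed at or below 0.794 TPM, and in the other 5 it lay between 4.06 and 4.65 TPM.

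The same 5 libraries held transcripts of kidney markers that are no transporters of these families. The 10 kidney markers fixed for this check, among them Kap, Umod and Aqp2, summed to between 0.199% and 0.223% of their normoxia kidney level in those 5 libraries, all labelled replicate 3 (at 7:30, 13:30, 16:30, 19:30 and 22:30), to at most 0.0223% in the other 19, and to between 0.0781% and 0.822% in the 24 libraries after IH. Of 23 members highest in kidney with at least 10 TPM there, 12 were picked for being under 0.1% of their kidney level in the 19 normoxia libraries. Summed, these 12 stood at 0.0121% of the kidney level in the median of the 19 normoxia libraries, at 0.243% in the median of the 5 and at 0.187% in the median library after IH. Gene by gene they lay between 0.192% and 0.305% in the 5 normoxia libraries and between 0.170% and 0.252% after IH.

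**Figure D3:**
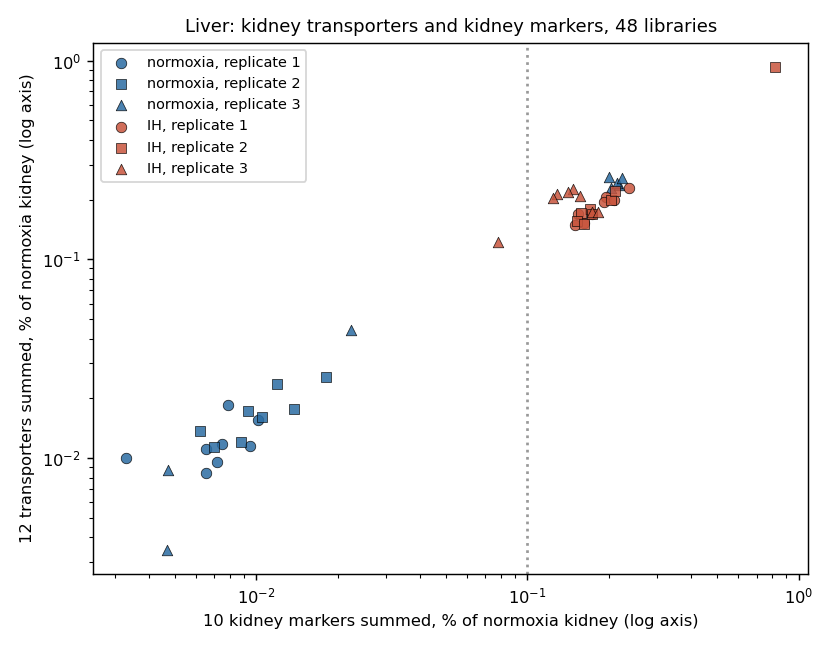
Each point is 1 of 48 liver libraries, with the summed level of 10 kidney markers (x axis) and of 12 members (y axis), both as a percent of the normoxia kidney level on log axes, colour for exposure and shape for replicate number. The 5 normoxia libraries right of the dotted line at 0.1% sit among the libraries after IH, and the remaining 19 normoxia libraries sit apart at lower left.

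Among liver libraries with kidney markers over 0.1% of the kidney level, Slc34a1 averaged 4.29 ± 0.252 TPM in the 5 of normoxia and 3.86 ± 2.88 in 23 after IH, and Slc22a12 averaged 2.67 ± 0.454 and 2.38 ± 1.72 TPM. This set was chosen after the data were seen and by transcripts that run with these genes in every library, so these means are a description and no test. Without the liver library that stood apart, which held the highest kidney marker level, the differences over all libraries were 2.01 and 1.54. Where these transcripts in liver libraries came from was not tested.

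Slc22a18, Slc22a7 and Slc13a3, which liver itself expresses, passed the adjusted p as lower after IH, and were lower within replicates 1 and 2 and not within replicate 3. Slc22a18 had a median of 71.9 TPM (50.6 to 86.2) in normoxia and 41.5 (3.95 to 83.2) after IH, lower at 8 of 8 time points, with a log2 difference of -0.62 (SE 0.14, adjusted p = 0.00118). Within replicates 1, 2 and 3 the difference was -0.93, -1.12 and 0.19, and without the liver library that stood apart it was -0.51 (adjusted p = 9.48e-05), which is under 1.5-fold. Slc22a7 had a median of 15.4 TPM (3.78 to 30.5) and 8.97 (1.53 to 15.3), with a difference of -0.57 (SE 0.19, adjusted p = 0.0209) and -0.99, -1.20 and 0.47 within replicates. Slc13a3 had a difference of -0.29 (SE 0.11, adjusted p = 0.0467) and of -0.67, -0.50 and 0.30 within replicates. None of these 3 passed when replicate 1 or replicate 2 was left out, with adjusted p between 0.119 and 0.699.

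The 5 normoxia libraries with kidney markers, all of replicate 3, lay nearer to the libraries after IH than the other 19 did for Slc22a7. Slc22a7 averaged 17.0 TPM in the other 19 normoxia libraries, 8.84 ± 3.26 in the 5 and 9.03 over all libraries after IH. Slc22a18 averaged 72.5, 65.7 ± 9.27 and 47.7 TPM. Among libraries with kidney markers over 0.1% the differences were 0.28 (SE 0.24) for Slc22a7, -0.35 (SE 0.29) for Slc22a18 and -0.34 (SE 0.23) for Slc13a3, none of which passed. That comparison of 5 normoxia libraries with 23 after IH called 0 of all 11391 genes tested, so it does not set these carriers apart. Liver members with no adjusted p under 0.05 in the test over all libraries included Slc22a30 at 104 ± 14.98 and 94.6 ± 26.3 TPM and Slc22a5 at 8.21 ± 1.89 and 7.31 ± 2.51 TPM. The median over the 15 members was -0.18, against -0.01 over all genes tested.

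In lung 11 of 17 members passed the adjusted p, 6 higher and 5 lower after IH, against 70.4% of all genes. With genes detected per library as a covariate 3 of these 11 still passed and 4 of the 11 turned in direction, with Slc34a2 in both counts. Slc22a17 ran from 6.23 to 10.4 TPM around 8.19 in normoxia and from 8.80 to 26.6 around 14.8 after IH, with little overlap, and was higher at 8 of 8 time points (log2 difference 0.58, SE 0.063, adjusted p = 5.08e-11). Its fold change was 1.49, just under the 1.5-fold bound, whereas Slc22a21 lay just above it at 1.58 (0.66, SE 0.11, adjusted p = 1.47e-06), with a median of 1.72 TPM (1.01 to 3.43) in normoxia and 3.42 (1.54 to 7.78) after IH. With TPM as deposited Slc22a17 was past the bound (0.87, adjusted p = 6.33e-14), as was Slc22a21 (0.92, adjusted p = 3.39e-09). Slc22a15 (0.23, adjusted p = 4.36e-07), Slc13a4 (0.29, adjusted p = 0.00125), Slc5a3 (0.27, adjusted p = 0.00916) and Slc22a5 (0.14, adjusted p = 0.00411) were also higher. With the covariate, the difference of Slc22a21 was -0.036 (adjusted p = 0.826), that of Slc22a5 -0.0097 (adjusted p = 0.912), that of Slc22a15 0.12 (adjusted p = 0.057), that of Slc5a3 0.31 (adjusted p = 0.0714), that of Slc13a4 0.35 (adjusted p = 0.0154) and that of Slc22a17 0.28 (adjusted p = 0.00398).

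Slc34a2, by far the most abundant of these carriers in lung, was lower after IH in part of the libraries. It ran from 270 to 744 TPM around 579 in normoxia and from 264 to 806 around 507 after IH, with a log2 difference of -0.53 (SE 0.12, adjusted p = 8.6e-05) after scaling and -0.22 (adjusted p = 0.0929) with TPM as deposited. Within replicates 1, 2 and 3 the difference was -0.99, -0.63 and 0.03. Lung markers, which are led by surfactant genes of the same cells, averaged 56.8% and 62.1% of their normoxia level in replicates 1 and 2 after IH and 100.5% in replicate 3, and when genes detected per library entered the fit the difference of Slc34a2 was 0.31 (adjusted p = 0.00608). Slc22a18 followed the same division, at 6.26, 6.57 and 10.1 TPM in replicates 1, 2 and 3 after IH against 9.12, 9.15 and 9.11 in normoxia (-0.60, SE 0.11, adjusted p = 6.93e-06). Its difference without the lung library of lowest correlation was -0.58 and with TPM as deposited -0.31, both under 1.5-fold. Leaving out that library kept other lung libraries after IH with low lung markers. With genes detected as a term the difference of Slc22a18 was -0.01 (adjusted p = 0.97). Slc5a1 (-0.40, adjusted p = 0.000855), Slc22a3 (-0.25, adjusted p = 0.0147) and Slc13a3 (-0.51, adjusted p = 0.0192) were the other members that were lower. With TPM as deposited these were -0.19 (adjusted p = 0.102), -0.01 (adjusted p = 0.936) and -0.30 (adjusted p = 0.18), and with genes detected as a term 0.16 (adjusted p = 0.325), -0.0031 (adjusted p = 0.987) and -0.12 (adjusted p = 0.756), so that none of them passed in either. The Slc13a3 mean of 2.81 TPM in normoxia held a single library at 34.9 TPM (replicate 2 at 10:30), and without that library the mean was 1.42 ± 0.356 (SD, n = 23) against 1.30 ± 0.484 after IH. The median over the 17 members was 0.03, against -0.08 over all genes tested.

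**Figure D4:**
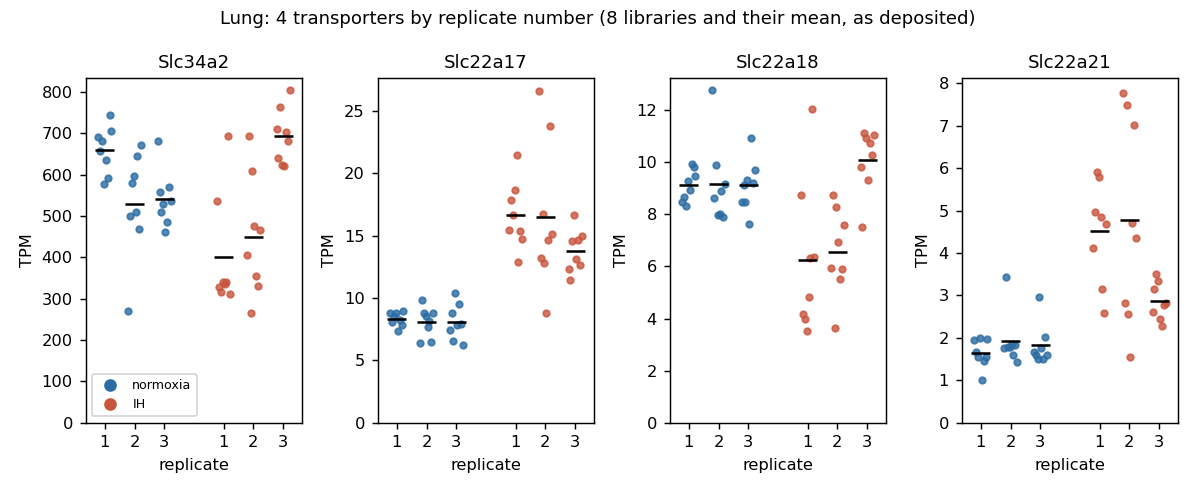
TPM as deposited of Slc34a2, Slc22a17, Slc22a18 and Slc22a21 in 48 lung libraries by replicate number, points for libraries and bars for the mean of 8. Slc22a17 is higher after IH in all 3 replicates, while Slc34a2 and Slc22a18 are lower in replicates 1 and 2 and not in replicate 3.

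Outside kidney, liver and lung, 4 of 8 members passed the adjusted p in heart (45.2% of all genes) and 0 in muscle or cerebellum, where 2 members in each had an unadjusted p of at most 0.05. Heart Slc5a6 was at 3.05 ± 0.957 TPM in normoxia and 4.39 ± 1.24 after IH (0.36, SE 0.075, adjusted p = 0.000124), higher at 8 of 8 time points. Slc22a3, Slc22a23 and Slc22a5 were higher by 0.30, 0.25 and 0.14 (adjusted p = 0.00787, 0.0166 and 0.0302). With genes detected as a term, which differed between the exposures in heart, the adjusted p of these 4 ranged upward from 0.227, and the difference turned to -0.19 for Slc22a23 and -0.11 for Slc22a5. In cerebellum 1 member was called without the library that stood apart, Slc22a19 (-0.91, adjusted p = 0.0173, against 0.0657 with it). Slc22a19 averaged 1.86 ± 3.95 TPM in normoxia cerebellum, with 16.4 and 11.5 TPM in replicates 1 and 2 at 7:30. After IH it averaged under 1 TPM there, so it entered the test through its normoxia level. In muscle Slc22a17 had an adjusted p of 0.0587, and 0.0444 with replicate number as a block, at a difference of -0.15 that is under 1.5-fold in both.

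The effect of IH was compared directly between tissues for members with at least 1 TPM in both. Libraries of different tissues may come from the same mice, and these tests treat them as independent. Kidney and liver differed for 5 of 14 members (30.3% of all genes), kidney and lung for 10 of 14 (63.2%), and liver and lung for 3 of 9 (52.6%). Slc34a1 and Slc22a12 were among the 5 for kidney and liver, and their liver levels ran with the kidney markers. The log2 difference of Slc22a18 after IH was 0.22 in kidney (adjusted p = 0.134, not passed) and -0.62 in liver, and these differed by 0.84 (SE 0.18, adjusted p = 0.000142). With liver limited to libraries holding kidney markers over 0.1% that difference was 0.58 (adjusted p = 0.158). The same gene differed between kidney and lung by 0.82 (SE 0.16, adjusted p = 4.07e-06).

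The second question was which carriers cycle over the day. A 24-hour cosine was fitted to the 24 libraries of each tissue and exposure, which gave 16 rhythmic pairs of a member and a tissue of 99 tested in normoxia and 7 of 98 after IH, with 6 pairs passing in both. In normoxia 9 of 35 members passed in kidney (20.9% of all genes), 2 of 14 in liver (17.8%), 3 of 16 in lung (9.7%), 0 of 8 in heart (0.616%), 2 of 9 in muscle (6.41%) and 0 of 17 in cerebellum (0.00658%). After IH 2 of 35 passed in kidney (5.62%), 2 of 14 in liver (2.55%), 1 of 17 in lung (4.15%), 0 of 8 in heart (4.37%), 2 of 9 in muscle (8.68%) and 0 of 15 in cerebellum (0.0207%). No member was rhythmic in heart at an unadjusted p of at most 0.05 in either exposure, whereas 6 members in normoxia cerebellum and 1 after IH reached it.

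Slc5a6, the vitamin carrier, was the member that cycled in most tissues. In normoxia kidney its mean rose from 9.12 ± 4.54 TPM at 1:30 to 15.6 ± 1.2 at 7:30 and fell to 7.85 ± 1.83 at 19:30 (SD, n = 3 at each time), with a fitted peak at 8.19 h, a peak-to-trough ratio of 1.86 and an adjusted p of 4.9e-05 in limma's F test. In liver it went from 2.00 ± 0.950 TPM at 1:30 to 7.86 ± 6.71 at 7:30 and 7.48 ± 2.79 at 10:30, with a fitted peak at 10.8 h and a ratio of 3.15, and in muscle from 3.46 ± 1.27 TPM at 1:30 to 9.23 ± 2.17 at 7:30, with a peak at 9.03 h and a ratio of 1.91. After IH it passed again in all of these, with peaks at 8.57, 10.7 and 9.59 h and ratios of 1.75, 2.74 and 2.12. By a JTK rank test on TPM as deposited, an alternative test of rhythm, Slc5a6 passed in normoxia kidney and liver and in muscle after IH. It did not pass by that test in normoxia muscle (adjusted p = 0.111), or after IH in kidney (0.53) or liver (0.188). Its amplitude in liver was 0.83 (SE 0.12) in normoxia and 0.73 (SE 0.13) after IH. In lung it did not pass in normoxia (adjusted p = 0.139), where it was at 3.66 TPM on average.

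**Figure D5:**
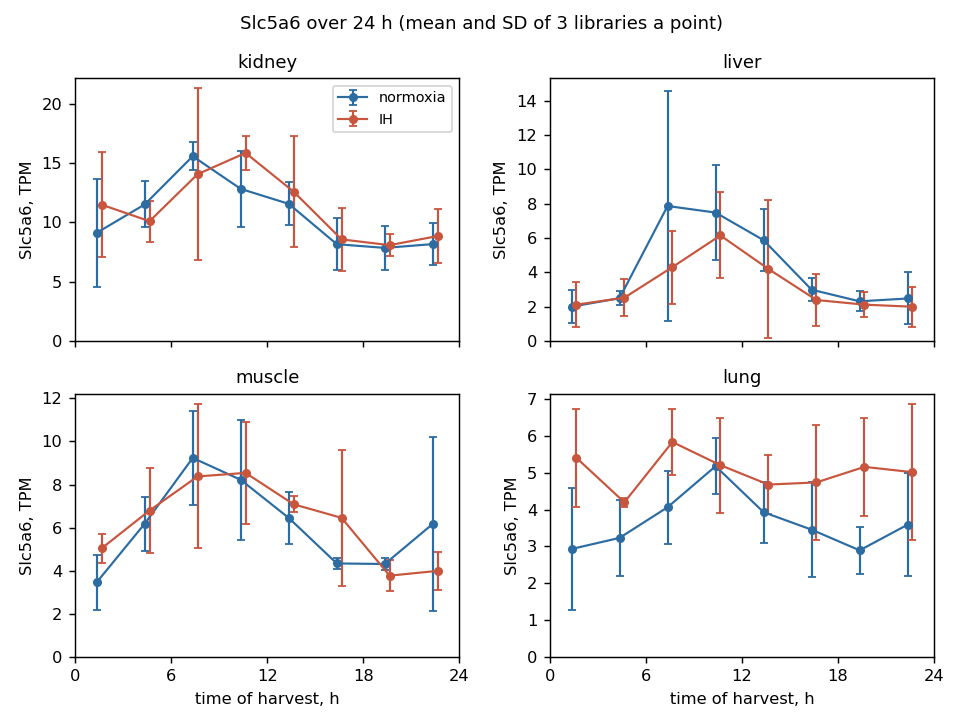
Slc5a6 in TPM (y axis) against the time of harvest in hours (x axis) in kidney, liver, muscle and lung, points and bars for the mean and SD of 3 libraries in normoxia and after IH. The level in kidney, liver and muscle is highest between 7:30 and 10:30 in both exposures.

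The fitted peaks of the rhythmic kidney members in normoxia lay between 4.12 and 10.8 h. They were the inositol carrier Slc5a11 (peak 4.12 h, ratio 1.52), the phosphate carrier Slc34a3 (4.38 h, 1.4), Slc22a21 (4.51 h, 1.58), the monocarboxylate carriers Slc5a8 (6.71 h, 1.51) and Slc5a12 (7.72 h, 1.39), Slc5a6, Slc22a4 (9.98 h, 1.31), the sulfate carrier Slc13a4 (10.2 h, 1.48) and the carnitine carrier Slc22a5 (10.8 h, 1.41). Slc5a12 was at 123 ± 4.43 TPM at 7:30 and 77.9 ± 12.3 at 16:30, and Slc22a5 at 109 ± 7.42 TPM at 7:30 and 67.0 ± 26.4 at 1:30. Adjusted p ran from 0.00113 for Slc22a5 to 0.0445 for Slc22a21 among those other than Slc5a6. By the JTK rank test only Slc5a6 (adjusted p = 0.0121) and Slc13a4 (0.046) of these kidney members passed, and the rest had an adjusted p of at least 0.117. Slc34a1, Slc22a12 and Slc5a2, which have some of the highest kidney levels, were not among the rhythmic kidney members. After IH Slc34a3 (peak 3.52 h, ratio 1.60, adjusted p = 0.0211) and Slc5a6 passed in kidney. With TPM as deposited 4 members passed in normoxia kidney and 0 after IH, and without the kidney library that stood apart 5 passed after IH.

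Other rhythmic members were found in liver, lung and muscle. Slc22a15 in liver was at 7.53 ± 0.258 TPM at 4:30 and 3.46 ± 0.808 at 13:30 in normoxia, with a peak at 1.45 h, a ratio of 1.91 and an adjusted p of 0.00017, and it peaked at 2.03 h with a ratio of 1.82 after IH (adjusted p = 0.0302). Slc5a6 was thus near its lowest in the same livers at the hours when Slc22a15 was near its highest. In lung Slc22a3 was at 2.73 ± 0.517 TPM at 22:30 and 1.42 ± 0.198 at 10:30 in normoxia (ratio 1.53, adjusted p = 0.00293) and passed again after IH (ratio 1.63, peak 1.22 h, adjusted p = 0.0416). Slc13a4 (peak 12.8 h, ratio 1.45) and Slc22a5 (11.7 h, 1.17) were rhythmic in normoxia lung with adjusted p of 0.00692 and 0.0295. In muscle Slc22a3 passed in normoxia (peak 10.0 h, ratio 1.67, adjusted p = 0.0346), and Slc5a3 passed after IH (21.2 h, 1.45, adjusted p = 0.0411). The fitted normoxia peak of Slc22a3 was at 0.0669 h in lung and 10.0 h in muscle. By the JTK rank test Slc22a15 in liver and Slc22a3 in lung passed in both exposures. Slc13a4 (adjusted p = 0.0511) and Slc22a5 (0.0567) in normoxia lung, Slc22a3 in normoxia muscle (0.617) and Slc5a3 in muscle after IH (0.178) did not.

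A call in normoxia and none after IH does not show a change of rhythm, so the difference was tested itself. In limma's test of the exposure-by-cosine terms 0 of 101 pairs passed, and the share of all genes was 0% in each of the 6 tissues. The lowest adjusted p of a member was 0.825, and 1 pair, Slc22a3 in muscle, had an unadjusted p of at most 0.05 (p = 0.0465). Its fitted muscle peak was at 10.0 h in normoxia and 14.2 h after IH, with amplitudes of 0.37 (SE 0.092) and 0.36 (SE 0.11).

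A list of 24 partner genes, of scaffolds, regulators, pumps and efflux carriers that work beside these transporters, was read from the same fits. In kidney 24 were tested and 0 were called after IH (0.783% of all genes), as for the transporters. By the adjusted p alone 2 were higher and 2 lower, against 19.8% of all genes. Among these were the glucose carrier Slc2a1 (0.24), the urate efflux carrier Abcg2 (-0.21) and the fatty acid sensor Ppara (-0.30). With genes detected as a term Slc2a1 still passed (0.34, adjusted p = 0.000656), and Abcg2 (-0.09, adjusted p = 0.21) and Ppara (-0.20, adjusted p = 0.115) did not. In liver 1 of 19 was called higher (Cltrn) and 2 lower, against 3.65% of all genes called in either direction. The 2 lower were the efflux carrier Abcc2 (-0.67, SE 0.23, adjusted p = 0.0251) and the glucose carrier Slc2a2 (-0.77, SE 0.25, adjusted p = 0.0186). These fits include the liver library that stood apart. Values of the partners without that library, or within replicates, were not read. In lung 1 of 15 was called higher, the efflux carrier Slc47a1, and 13.48% of all genes were called in either direction. Slc47a1 averaged 0.847 TPM in normoxia and 2.19 after IH and so entered the test only through its level after IH. Another 3 were called lower in lung, among them Slc2a1 and the scaffold Slc9a3r1 (-0.69 and -0.71), whose differences with genes detected as a term were -0.03 (adjusted p = 0.875) and 0.07 (adjusted p = 0.659). Heart, muscle and cerebellum had 0 of 13, 0 of 12 and 0 of 16 called, against 2.95%, 0.374% and 2.64% of all genes. Heart partners that passed the adjusted p were 9 of 13, all higher, against 45.2% of all genes, and 0 of 13 passed with genes detected as a term. In the rhythm test 9 of 24 partners passed in normoxia kidney (20.9% of all genes) and 2 of 24 after IH (5.62%). Liver had 10 of 19 in normoxia (17.8% of all genes) and 1 of 19 after IH (2.55%).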

How the data were processed

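RNA was sequenced from 288 libraries of 6 tissues. The authors estimated transcript abundance with kallisto on mm10 and deposited a table of TPM values for each tissue and exposure (FastQC 0.11.3, bcl2fastq and DESeq2 are also named in the submitters' processing notes). TPM keeps no read number, so sequencing depth is unknown here and no counting interval is given. Kallisto divides reads among near-identical transcripts, which makes the Slc22a19 and Slc22a26 to Slc22a30 copies and Slc22a4, Slc22a5 and Slc22a21 less certain.

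Columns were matched to samples by the tissue, treatment, time and replicate in their names. For comparisons within a tissue, TPM was scaled by median-of-ratios factors and taken as log2(TPM + 0.5), and genes averaging under 1 TPM in the tissue were left out. For comparisons among tissues TPM was used as deposited. All tests were limma 3.58.1 in R 4.3.3 with Benjamini-Hochberg adjustment over all genes, with treatment as the only term for the effect of IH and a 24-hour cosine and sine pair for rhythm. A change was called at an adjusted p of at most 0.05 and 1.5-fold. The study's methods give 3 mice per time point and exposure, the labels do not tie libraries to mice, and p-values measure the spread between these samples. Libraries of different tissues may come from the same mice, and the main tests among tissues hold no term for the mouse. Other work used Python 3.11.15, numpy 2.4.6, scipy 1.17.1, pandas 2.3.3 and matplotlib 3.10.9. The fits were tested on simulated data with known changes.

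By the rule for named genes, members with at least 1 TPM in some tissue are named with their highest tissue, called members are named, and the others are given by name and range. Results of some genes are not reported here, though counts include them. The members and gene lists were chosen with earlier results of these data known. Alternatives were TPM as deposited, pseudocounts of 0.1 and 1, no filter or a mean of at least 5 TPM, time point as a term, a replicate block, each replicate left out, a JTK rank test for rhythm, a 4-fold rule for tissues, median-of-ratios scaling among tissues, and liver without libraries with kidney markers over 0.1% of the kidney level. A term for the number of genes detected, leaving out the library of lowest correlation of each tissue, the comparison within libraries with kidney markers, and the tissue test on libraries after IH were chosen after seeing the data. Replicate numbers were checked for pairing by the correlation of the deviations of same-numbered samples. In muscle these were 0.155, 0.375 and 0.650 for replicates 1, 2 and 3. All were positive, which does not settle whether the numbers pair the muscle samples. The block changed no call there.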

Additional observations from a re-analysis of the deposited data

Results flagged for a closer look

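The effect of IH on a carrier differed between tissues in the tests of the difference itself that follow (adjusted p of at most 0.05, limma). Each value is the log2 change after IH in the tissue named first minus that in the tissue named second.

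Between kidney and liver the difference was 0.52 for Slc13a3, -1.64 for Slc22a12, 0.84 for Slc22a18 and -2.03 for Slc34a1. Slc22a12 entered this test only through its liver level after IH, since its normoxia liver mean was 0.665 TPM. In normoxia liver Slc34a1 averaged 0.155 TPM in 19 libraries and 4.29 TPM in the 5 that held kidney markers. Where these transcripts in liver came from was not tested. With liver limited to libraries whose kidney markers exceeded 0.1% of the kidney level, the difference was 0.57 (adjusted p = 0.0977) for Slc13a3 and 0.58 (0.158) for Slc22a18, and neither passed. For Slc22a12 and Slc34a1 that selection is by transcripts that run with them, so no value is given.

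Between kidney and lung it was 0.74 for Slc13a3, -0.44 for Slc13a4, -0.18 for Slc22a15, -0.42 for Slc22a17, 0.82 for Slc22a18, -0.69 for Slc22a21, -0.26 for Slc22a4, 0.55 for Slc5a1 and -0.49 for Slc5a12. All 9 passed also without the library of lowest correlation in each tissue. That step removed a single lung library and kept other lung libraries after IH with low lung markers. The lung value of Slc13a3 holds the normoxia library at 34.9 TPM. The number of genes detected in lung differed between the exposures, and its part in the differences between tissues was not tested. In the fits of lung alone, Slc13a3, Slc22a15, Slc22a18, Slc22a21 and Slc5a1 passed, and did not pass with genes detected as a term. Slc13a4 and Slc22a17 passed there in both.

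Between liver and lung it was -0.42 for Slc22a15 and -0.22 for Slc22a5. With liver limited to libraries with kidney markers, the values were -0.14 (0.534) for Slc22a15 and -0.30 (0.0374) for Slc22a5.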

How the results depend on the processing

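Counts of members called after IH moved with the setting in liver, lung and cerebellum, and those in kidney, heart and muscle stayed within 1.5 times. In liver 3 became 5 with TPM as deposited or no filter, 1 with a mean of at least 5 TPM, 0 without or within the libraries with kidney markers over 0.1%, and 2 to 5 leaving out each replicate. Selecting by those markers also selects on Slc34a1 and Slc22a12, which run with them. Within the libraries with kidney markers 0 of all 11391 genes tested were called. Leaving out those libraries kept 1 liver library after IH, which was assumed to vary like the others. In lung 2 became 4 with a pseudocount of 0.1, 0 with 1, 1 with a mean of at least 5 TPM, 1 with genes detected as a term, 1 without the library of lowest correlation, and 0 to 6 leaving out each replicate. With genes detected as a term both lung calls were lost, Slc22a21 turned to -0.036 and Slc5a6 (0.59, adjusted p = 0.000411) was the 1 called. With TPM as deposited the lung count was again 2, with Slc22a17 in place of Slc22a18. Without the library of lowest correlation the 1 called was Slc22a21. In cerebellum 0 became 1 with a pseudocount of 0.1 and 1 without the library of lowest correlation, and 0 to 1 leaving out each replicate. The cause was not tested for any of these.

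Rhythm counts moved more often. In normoxia kidney 9 became 4 with TPM as deposited, 2 by the JTK rank test and 5 to 7 leaving out each replicate. In normoxia liver 2 became 1 and in normoxia lung 3 became 1 with a mean of at least 5 TPM, and lung ran from 0 to 2 leaving out each replicate. In normoxia muscle 2 became 0 with TPM as deposited, 0 by JTK and 0 to 1 leaving out each replicate. After IH, kidney 2 became 0 with TPM as deposited, 0 by JTK, 5 without the library of lowest correlation and 0 to 3 leaving out each replicate. Liver 2 became 0 with TPM as deposited, 0 with a mean of at least 5 TPM and 0 to 1 leaving out each replicate. Lung 1 became 0 with a mean of at least 5 TPM and 0 leaving out any replicate. Muscle 2 became 1 with TPM as deposited, 1 with a mean of at least 5 TPM, 1 by JTK and 0 to 1 leaving out each replicate. Each replicate left out also removes 8 of 24 libraries. The count of members with a difference in rhythm was 0 in all 48 alternatives.

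Among tissues, members highest in cerebellum went from 5 to 3 with median-of-ratios scaling, 3 with a pseudocount of 1 and 2 with the 4-fold rule, muscle from 1 to 0 with the 4-fold rule, and lung from 1 to 2 on libraries after IH. The kidney count stayed within 1.5 times of 26.

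With replicate number as a block the rhythmic kidney members after IH were 4 against 2, and no other count moved by over 1.5 times. Outside muscle the correlations of same-numbered deviations were negative or mixed in sign, and pairing was not settled. They were -0.340, -0.363 and -0.172 in kidney, 0.669, -0.0646 and 0.487 in liver, and -0.519, 0.287 and -0.439 in lung. Heart had 0.00827, -0.124 and -0.106, and cerebellum -0.134, -0.257 and -0.409.

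TPM keeps no depth, so members near 0 cannot be bounded by a count.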

Other observations

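In normoxia cerebellum, 4 members that are mostly low reached high values in single libraries, in part the same ones. In replicate 1 at 7:30, Slc22a19 was at 16.4 TPM, Slc5a7 at 5.53, Slc22a14 at 4.5 and Slc5a11 at 2.63. In replicate 2 at 7:30 they were at 11.5, 4.78, 3.40 and 2.48 TPM, in the same order of genes. In other libraries they parted. Slc5a7 was highest, at 6.22 TPM, in replicate 2 at 1:30, where Slc22a19 was at 0.623 and Slc22a14 at 0.0243 TPM, and Slc5a11 was highest, at 4.37 TPM, in replicate 3 at 4:30, where Slc5a7 was at 0.454 TPM. Over the 24 normoxia cerebellum libraries Slc5a7 had a median of 0.49 TPM. These libraries were picked for their values, and no test was made.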
